A study of Mus musculus with 8 samples.

Results

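The 7 genes described here, Nr1h4, Nr0b2, Slc10a2, Fabp6, Slc51a, Slc51b and Fgf15, take up, carry, export and sense bile acids in the lower small intestine. They were taken by gene symbol from an expression table of mouse jejunal crypts that lists 23951 gene symbols, and the rule that picks them uses no measured value, though the set was proposed with earlier results of these data known. All 7 passed the filter on low values and are among the 12084 genes tested.

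Bile acids are made in the liver, released into the duodenum to dissolve fat, and reclaimed mainly in the ileum. There the apical transporter encoded by Slc10a2 brings them into the enterocyte, the cytosolic binding protein encoded by Fabp6 carries them, and the heteromeric exporter encoded by Slc51a and Slc51b passes them to the blood. Inside the cell they bind the nuclear receptor FXR, encoded by Nr1h4, whose known targets include Nr0b2, which encodes the corepressor SHP, and Fgf15, a hormone that travels to the liver and lowers bile acid synthesis. Most of these genes are known to be far higher in the ileum than in the jejunum, so their levels in jejunal tissue depend on how far down the gut a piece was taken.

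Messenger RNA was sequenced from crypts of the jejunum, the middle part of the small intestine, in 8 libraries from 3 groups of mice. All mice carried a heterozygous conditional BRAF-V600E allele (f/+), which encodes an activated MAPK-pathway kinase. All also carried Villin-CreER(T2), a tamoxifen-inducible recombinase driven by the Villin promoter and so directed to the intestinal epithelium. The group SMAD4KO_BRAF (3 libraries) was in addition homozygous for floxed Smad4, which encodes the shared mediator of TGF-beta and BMP signalling. CDX2KO_BRAF (2 libraries) was instead homozygous for floxed Cdx2, an intestinal identity transcription factor, and the group BRAF (3 libraries) had no further floxed gene. All 3 groups received tamoxifen on 4 consecutive days and were collected 1 day later, with epithelium released in 3 mM EDTA and crypts collected through a 70 micron filter. Libraries carry the number of their column in the table, counted from 0, which cannot be matched to the numbers in the sample titles. The labels do not say that libraries came from separate animals, so the p-values rest on the spread between these libraries alone, which may be technical at least in part.

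Values are FPKM, fragment numbers scaled to transcript length and to library size, as deposited by the authors. The files give no read counts, so the depth is unknown, and summed FPKM ran between 431269 in 1 library and 595547 in another. Changes are differences of mean log2(FPKM + 1), which understate the change of genes at low values, with standard errors and two-sided Benjamini-Hochberg adjusted p-values from a limma fit over all tested genes, called at 0.05. The comparisons of SMAD4KO_BRAF and of CDX2KO_BRAF with BRAF share the same 3 BRAF libraries. Y-linked genes mark SMAD4KO_BRAF library 0 and BRAF library 0 as male and the other 6 libraries as female. The libraries of SMAD4KO_BRAF and of BRAF thus came from more than 1 animal in each group, which is not known for CDX2KO_BRAF.

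Smad4 was at 10.7, 8.38 and 7.66 FPKM in the SMAD4KO_BRAF libraries, against 42.5, 47.0 and 42.4 FPKM in the BRAF libraries, and fell by 2.19 ± 0.13 (SE) on the log2 scale (limma adjusted p = 0.00163). Cdx2 was at 155 and 121 FPKM in the libraries labelled CDX2KO_BRAF, against 64.2, 82.6 and 80.1 FPKM in the BRAF libraries, and so was higher in the group labelled as its knockout (log2 change 0.86 ± 0.18, limma adjusted p = 0.0213). Expression summed over a whole gene does not test the floxed part alone, and the direction of Cdx2 goes against the label, so CDX2KO_BRAF stands here for the libraries labelled so. Gastric epithelium markers were high in those libraries: 5 of 6 tested rose against BRAF, where 14.1% of all tested genes were called in either direction. Their median log2 change was 7.65, against 0.02 for all tested genes. Braf was within 3.66 to 4.88 FPKM in all 8 libraries.

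Markers of the crypt were present in all libraries. The stem cell marker Lgr5 was at 5.19, 5.88 and 6.72 FPKM in SMAD4KO_BRAF, at 3.03 and 2.44 FPKM in CDX2KO_BRAF, and at 1.48, 2.35 and 1.26 FPKM in BRAF, and the Paneth cell marker Lyz1 was at 259 FPKM or more in every library. Of 7 stem cell markers, 0 passed the limma test against BRAF in either comparison. Under an unadjusted p of 0.05 were 2 in SMAD4KO_BRAF and 4 in CDX2KO_BRAF, against 15.1% and 28.8% of all tested genes. In CDX2KO_BRAF against BRAF 3 of 5 Paneth cell and 1 of 6 enteroendocrine markers fell. There 7.21% of all tested genes fell and 14.1% were called in either direction. Of 5 goblet cell markers 1, Clca1, rose, while 3 had negative changes, among them Muc2 (log2 change -0.75 ± 0.24, limma adjusted p = 0.0897). Ttr, the only tested gene of 6 hepatocyte and pancreatic acinar markers, also rose. Serpina1a and Cpb1 of that last list were at 0 in all 8 libraries.

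In the libraries labelled CDX2KO_BRAF, 3 of the 7 genes fell against BRAF and 4 were not called. Those that fell were Fabp6, Slc51a and Slc51b, which encode the carrier and both subunits of the exporter. Over all tested genes 7.21% fell in that comparison and 14.1% were called in either direction. At an unadjusted p under 0.05 there were 4 of 7, against 28.8% of all tested genes. Slc10a2 was lower in both labelled CDX2KO_BRAF libraries than in any BRAF library without passing the test, so 4 of the 7 genes did not overlap with BRAF on the lower side, against 22.7% of all tested genes. The log2 change was negative for 5 of the 7, against 47.4% of all tested genes, and its median over the 7 was -1.63, against 0.02 over all tested genes.

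For SMAD4KO_BRAF against BRAF, 0 of the 7 genes passed the limma test, where 0.0745% of all tested genes did, 0.0497% on the lower side. At an unadjusted p under 0.05 there were 3 of 7, against 15.1% of all tested genes. The log2 change was negative for 6 of the 7, against 51.8% of all tested genes, with a median of -1.2 against -0.01 over all tested genes. Slc10a2, Slc51a and Slc51b were lower in every SMAD4KO_BRAF library than in every BRAF library, 3 of 7 against 10.4% of all tested genes.

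Between the libraries labelled CDX2KO_BRAF and SMAD4KO_BRAF, 1 of the 7 genes passed the test: Slc51a was lower in CDX2KO_BRAF. Over all tested genes 5.01% were lower in that comparison and 11.6% were called in either direction. At an unadjusted p under 0.05 there were 3 of 7, against 28.9% of all tested genes, and 5 of 7 log2 changes were negative, against 47.6%. Fabp6, Slc51a and Fgf15 did not overlap between these groups, 3 of 7 on the lower side, against 22.2% of all tested genes.

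**Figure D1:**
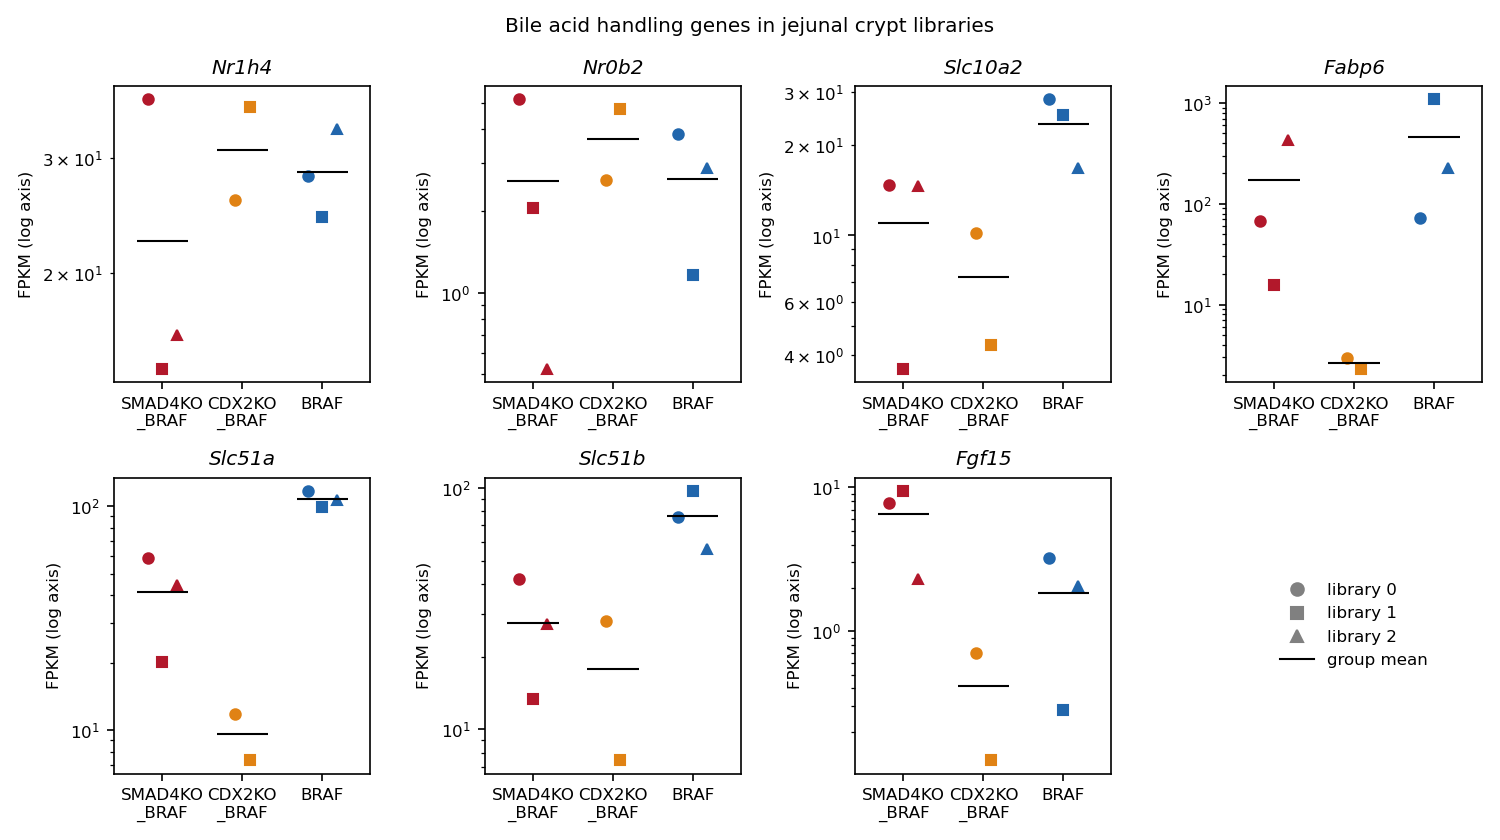
FPKM on a log axis, which differs between panels, for each of the 7 genes, with 1 point for each library and a line at the group mean (3 SMAD4KO_BRAF, 2 CDX2KO_BRAF and 3 BRAF libraries, from left to right). Slc51a separates the 3 groups, with 7.33 to 11.8 FPKM in CDX2KO_BRAF and 99.7 to 117 FPKM in BRAF, while Fabp6 spans 71.7 to 1083 FPKM within BRAF.

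Promoter sequences are shown for the 4 genes of uptake, carriage and export, so that what their start regions do and do not share can be read. Every call among the 7 was for Fabp6, Slc51a or Slc51b, and Slc10a2 was called in no comparison. They run from 250 bases before to 50 bases after the gene start in RefSeq on GRCm38.p6 (the table itself was made on mm9), all on the minus strand and printed 5′ to 3′ in the gene's direction. They lie at chr8:5105238-5105537 (Slc10a2), chr11:43601513-43601812 (Fabp6), chr16:32487830-32488129 (Slc51a) and chr9:65422724-65423023 (Slc51b). The same RefSeq promoter table holds 6 of the 7 genes, Fgf15 being the other. Capitals mark matches to the motifs given after the sequences.
Slc10a2: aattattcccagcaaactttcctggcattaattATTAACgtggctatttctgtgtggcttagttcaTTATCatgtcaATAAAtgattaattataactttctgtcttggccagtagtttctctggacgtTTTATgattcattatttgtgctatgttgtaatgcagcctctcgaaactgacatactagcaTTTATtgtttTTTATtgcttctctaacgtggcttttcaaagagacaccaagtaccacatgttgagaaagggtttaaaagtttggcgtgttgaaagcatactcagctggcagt
Fabp6: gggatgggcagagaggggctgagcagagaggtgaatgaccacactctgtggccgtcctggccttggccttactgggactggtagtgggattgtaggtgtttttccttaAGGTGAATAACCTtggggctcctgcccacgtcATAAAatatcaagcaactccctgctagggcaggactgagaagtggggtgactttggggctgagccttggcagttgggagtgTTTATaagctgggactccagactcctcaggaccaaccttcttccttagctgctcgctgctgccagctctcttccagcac
Slc51a: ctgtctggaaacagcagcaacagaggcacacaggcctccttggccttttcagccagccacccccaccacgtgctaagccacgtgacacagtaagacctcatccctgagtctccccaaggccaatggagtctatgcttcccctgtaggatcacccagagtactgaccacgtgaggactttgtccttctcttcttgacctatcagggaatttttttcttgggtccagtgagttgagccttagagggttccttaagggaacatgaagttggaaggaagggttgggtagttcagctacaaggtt
Slc51b: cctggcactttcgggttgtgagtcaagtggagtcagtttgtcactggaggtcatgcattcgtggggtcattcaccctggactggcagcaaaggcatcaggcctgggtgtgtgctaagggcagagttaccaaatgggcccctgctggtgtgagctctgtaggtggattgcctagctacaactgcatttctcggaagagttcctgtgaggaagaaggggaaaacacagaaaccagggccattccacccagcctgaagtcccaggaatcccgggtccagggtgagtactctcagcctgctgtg

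Both strands were searched for each motif. The inverted repeat bound by FXR was searched in a strict form (AGGTCANTGACCT) and in a relaxed form (AGGTNANTNACCT) that includes every strict match. The Fabp6 promoter holds the relaxed repeat as AGGTGAATAACCT, 142 bases before the start, a form found in 7 of 32851 RefSeq mouse promoters of the same length (0.0213%). The strict form is in 3 of them (0.00913%) and in none of the 6 searched here. An HNF1 half-site (GTTAAT) is in 7.1% of all promoters and lies 217 bases before the start of Slc10a2, on the reverse strand. The core of the site bound by CDX factors (TTTAT) is in 40.0% of promoters, with 4 copies in Slc10a2 and 2 in Fabp6. Those of Fabp6 begin 110 and 29 bases before the start. Slc10a2 also holds a GATA core (GATAA, in 25.4% of promoters), on the reverse strand.

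Slc51a and Slc51b, which fell beside Fabp6 in the libraries labelled CDX2KO_BRAF, hold none of these motifs in this window. Of the sensing genes, whose promoters are not printed, Nr0b2 holds 1 CDX core, 27 bases before the start. It also holds 2 LRH-1 half-sites (TCAAGG, in 14.4% of promoters), at 68 and 35 bases before the start. Slc51a and Slc51b lack the LRH-1 half-site as well. Nr1h4 holds an HNF1 half-site 40 bases before the start, 2 CDX cores and a GATA core that overlaps 1 of them. A match is a description of letters and not a binding site, and no match says only that these letters are not in this window.

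FPKM is per length, so levels of different genes can be set side by side. In BRAF libraries the order of mean FPKM was Fabp6, Slc51a, Slc51b, Nr1h4, Slc10a2, Nr0b2 and Fgf15. The mean of Fabp6 there was higher than that of 99.4% of all genes in the table, and that of Fgf15 was higher than that of 55.6%. Neighbours in that order whose libraries overlapped were Fabp6 with Slc51a, Nr1h4 with Slc10a2, and Nr0b2 with Fgf15. In SMAD4KO_BRAF Fabp6, Slc51a, Slc51b, Nr1h4 and Slc10a2 kept that order, Fgf15 stood above Nr0b2, and every neighbouring pair overlapped. In the libraries labelled CDX2KO_BRAF Nr1h4 was the highest of the 7 by its mean, and Fabp6 was sixth, above Fgf15 alone. There Fabp6 and Fgf15 were the only neighbours that did not overlap.

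The receptor gene Nr1h4 was measured in every library. It was at 36.8, 14.3 and 16.1 FPKM in SMAD4KO_BRAF, at 25.9 and 35.8 FPKM in the libraries labelled CDX2KO_BRAF, and at 28.1, 24.4 and 33.2 FPKM in BRAF. All 3 groups overlapped, with the lowest values in SMAD4KO_BRAF libraries 1 and 2 and the highest in SMAD4KO_BRAF library 0. The log2 change was -0.45 ± 0.34 in SMAD4KO_BRAF against BRAF (limma adjusted p = 0.533, 95% interval -1.25 to 0.35) and 0.1 ± 0.38 in CDX2KO_BRAF against BRAF (limma adjusted p = 0.885, 95% interval -0.8 to 0.99). Both intervals take in falls and rises and are not adjusted for the number of genes. The activity of the receptor was not measured.

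Nr0b2, the corepressor induced by FXR, was low throughout. Its FPKM was 5.15, 2.05 and 0.524 in SMAD4KO_BRAF, 2.61 and 4.75 in both libraries labelled CDX2KO_BRAF, and 3.84, 1.16 and 2.89 in BRAF. The groups overlapped, and the 3 SMAD4KO_BRAF libraries alone spanned a 9.83-fold range. The log2 change was -0.17 ± 0.53 in SMAD4KO_BRAF against BRAF (limma adjusted p = 0.902), 0.41 ± 0.6 in CDX2KO_BRAF against BRAF (limma adjusted p = 0.685) and 0.58 ± 0.6 in CDX2KO_BRAF against SMAD4KO_BRAF (limma adjusted p = 0.564).

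Slc10a2, the apical sodium-dependent bile acid transporter, was at 14.7, 3.61 and 14.6 FPKM in SMAD4KO_BRAF, at 10.2 and 4.34 FPKM in the libraries labelled CDX2KO_BRAF, and at 28.3, 25.2 and 16.8 FPKM in BRAF. Every BRAF library was above every library of the other two groups, which overlapped each other. Means were 11.0 ± 6.37 FPKM (SD, n = 3) in SMAD4KO_BRAF, 7.27 ± 4.14 (SD, n = 2) in CDX2KO_BRAF and 23.4 ± 5.97 (SD, n = 3) in BRAF. Neither difference from BRAF passed the test. The log2 change was -1.2 ± 0.52 in SMAD4KO_BRAF (limma adjusted p = 0.341, 95% interval -2.43 to 0.03) and -1.63 ± 0.59 in CDX2KO_BRAF (limma adjusted p = 0.116, 95% interval -3.01 to -0.25, which is not adjusted for the number of genes). Without SMAD4KO_BRAF library 1 the CDX2KO_BRAF difference from BRAF passed (limma adjusted p = 0.034); over all alternatives its adjusted p ran between 0.034 and 0.419.

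Fabp6, the ileal bile acid-binding protein, varied most of the 7. It was at 67.4, 15.6 and 430.4 FPKM in SMAD4KO_BRAF, at 2.93 and 2.31 FPKM in the libraries labelled CDX2KO_BRAF, and at 71.7, 1083 and 226 FPKM in BRAF. Both CDX2KO_BRAF libraries were below every other library, and within BRAF and SMAD4KO_BRAF the highest library exceeded the lowest 15.1-fold and 27.5-fold. Against BRAF it fell by 6.18 ± 1.47 on the log2 scale in CDX2KO_BRAF (limma adjusted p = 0.0343, 95% interval -9.64 to -2.72). The call was lost in 8 of 19 alternatives, among them without CDX2KO_BRAF library 0 (limma adjusted p = 0.145), CDX2KO_BRAF library 1 (0.161), SMAD4KO_BRAF library 0 (0.0506), BRAF library 1 (0.0711) or BRAF library 2 (0.0834), each still with a negative change.

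The Fabp6 ranges of SMAD4KO_BRAF and BRAF lay across each other (log2 change -1.73 ± 1.32, limma adjusted p = 0.536, 95% interval -4.82 to 1.36). CDX2KO_BRAF against SMAD4KO_BRAF gave a log2 change of -4.45 ± 1.47 for Fabp6 (limma adjusted p = 0.0943), which passed in 1 of 19 alternatives, with library weights (limma adjusted p = 0.0376).

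Slc51a, the alpha subunit of the basolateral exporter, had the smallest adjusted p of the 7 genes in the libraries labelled CDX2KO_BRAF. It was at 59.0, 20.1 and 44.5 FPKM in SMAD4KO_BRAF, at 11.8 and 7.33 FPKM in CDX2KO_BRAF, and at 117, 99.7 and 107 FPKM in BRAF. No 2 groups overlapped, with CDX2KO_BRAF lowest and BRAF highest. Mean FPKM was 11.2-fold lower in CDX2KO_BRAF than in BRAF (9.59 ± 3.19 against 108 ± 8.45, SD, n = 2 and 3). On the log2 scale it fell by 3.39 ± 0.42 (limma adjusted p = 0.00323, 95% interval -4.37 to -2.42). It passed in all 19 alternatives, with adjusted p between 0.000922 and 0.0371.

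Against SMAD4KO_BRAF, Slc51a fell by 1.9 ± 0.42 on the log2 scale in CDX2KO_BRAF (limma adjusted p = 0.0294). That call was lost in 7 of 19 alternatives, among them without CDX2KO_BRAF library 0 (limma adjusted p = 0.0846) or library 1 (0.168), SMAD4KO_BRAF library 0 (0.0562) or library 2 (0.0854), or BRAF library 2 (0.055). In SMAD4KO_BRAF against BRAF the log2 change of Slc51a was -1.49 ± 0.37, with mean FPKM of 41.2 ± 19.6 against 108 ± 8.45 (SD, n = 3 each). It did not pass after adjustment (limma adjusted p = 0.203, unadjusted p = 0.00472, 95% interval -2.36 to -0.62) and passed in 1 of 19 alternatives, with library weights (limma adjusted p = 0.0395).

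Slc51b, the beta subunit, was at 41.9, 13.4 and 27.2 FPKM in SMAD4KO_BRAF, at 28.0 and 7.44 FPKM in the libraries labelled CDX2KO_BRAF, and at 76.0, 97.3 and 55.9 FPKM in BRAF. BRAF lay above both other groups, which overlapped each other. It fell by 2.27 ± 0.61 on the log2 scale in CDX2KO_BRAF against BRAF (limma adjusted p = 0.0493), close to the threshold. The call held in 6 of 19 alternatives, over which the adjusted p ran between 0.0337 and 0.243, and leaving out CDX2KO_BRAF library 1 brought the log2 change to -1.38. It was also lost without SMAD4KO_BRAF library 2 (limma adjusted p = 0.0753) and without BRAF library 0 (0.105), library 1 (0.114) or library 2 (0.0855). Its log2 change in SMAD4KO_BRAF against BRAF was -1.54 ± 0.54 (limma adjusted p = 0.281, unadjusted p = 0.0243).

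The exporter works as a pair of unlike subunits, so their ratio was read within each library. Slc51a over Slc51b, in FPKM, was 1.41, 1.5 and 1.64 in SMAD4KO_BRAF, 0.423 and 0.985 in both libraries labelled CDX2KO_BRAF, and 1.53, 1.02 and 1.92 in BRAF. The CDX2KO_BRAF libraries were the only ones with a ratio under 1, and the upper of them was close to BRAF library 1. The ratio averaged 1.52 ± 0.117 (SD, n = 3) in SMAD4KO_BRAF, 0.704 ± 0.397 (SD, n = 2) in CDX2KO_BRAF and 1.49 ± 0.448 (SD, n = 3) in BRAF. It was looked at after the values of both genes were seen, and no test was made of it.

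Fgf15, the enterocyte hormone, was low, at 7.77, 9.42 and 2.31 FPKM in SMAD4KO_BRAF, 0.703 and 0.127 FPKM in both libraries labelled CDX2KO_BRAF, and 3.23, 0.285 and 2.05 FPKM in BRAF. It is the only one of the 7 with a positive log2 change in SMAD4KO_BRAF against BRAF, 1.4 ± 0.57, which did not pass (limma adjusted p = 0.312, unadjusted p = 0.0418), and SMAD4KO_BRAF library 2 lay below BRAF library 0. Both CDX2KO_BRAF libraries lay below every SMAD4KO_BRAF library. That difference was -2.28 ± 0.63 on the log2 scale (limma adjusted p = 0.0607), and passed without SMAD4KO_BRAF library 2 (0.0401) or without BRAF library 1 (0.0394). Against BRAF the CDX2KO_BRAF log2 change of Fgf15 was -0.88 ± 0.63 (limma adjusted p = 0.401), with BRAF library 1 between the 2 CDX2KO_BRAF libraries.

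**Figure D2:**
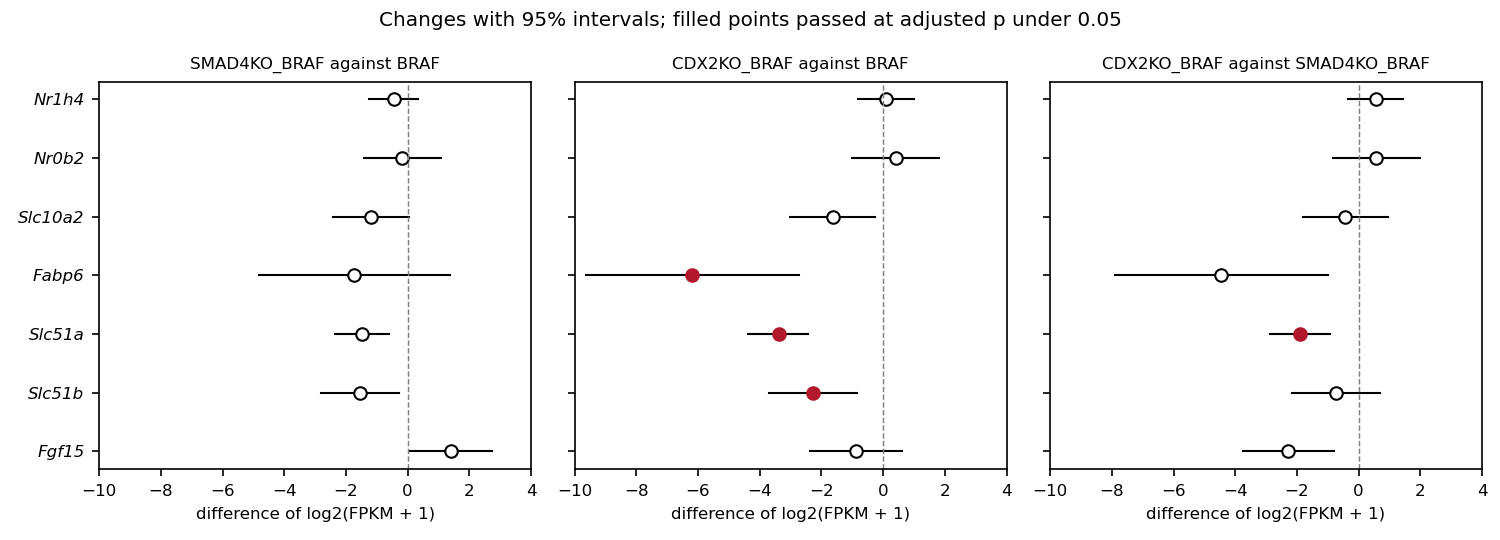
Log2 change of the 7 genes with 95% intervals, on the log2(FPKM + 1) scale, in the 3 comparisons, with filled points where the limma adjusted p is under 0.05. Filled points are Fabp6 (-6.18), Slc51a (-3.39) and Slc51b (-2.27) in CDX2KO_BRAF against BRAF and Slc51a (-1.9) in CDX2KO_BRAF against SMAD4KO_BRAF, and the interval of Fabp6 is the widest in each panel.

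The spread within groups is of interest because a piece of gut taken nearer the ileum would carry more of these genes. The SD of log2(FPKM + 1) within groups, pooled over the 3 groups, was 1.94 for Fabp6, larger than that of 98.6% of the 12084 tested genes. It was 0.82 for Fgf15 (larger than 95.5%), 0.8 for Slc51b (95.2%), 0.77 for Slc10a2 and for Nr0b2 (94.9% each), 0.54 for Slc51a (90.0%) and 0.49 for Nr1h4 (88.3%), against a median of 0.21 over all tested genes. All 7 were thus in the more variable part of the tested genes. Within BRAF alone Slc51a was close to constant, its highest library 1.17-fold above its lowest, while Fabp6 spanned 15.1-fold in the same 3 libraries.

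**Figure D3:**
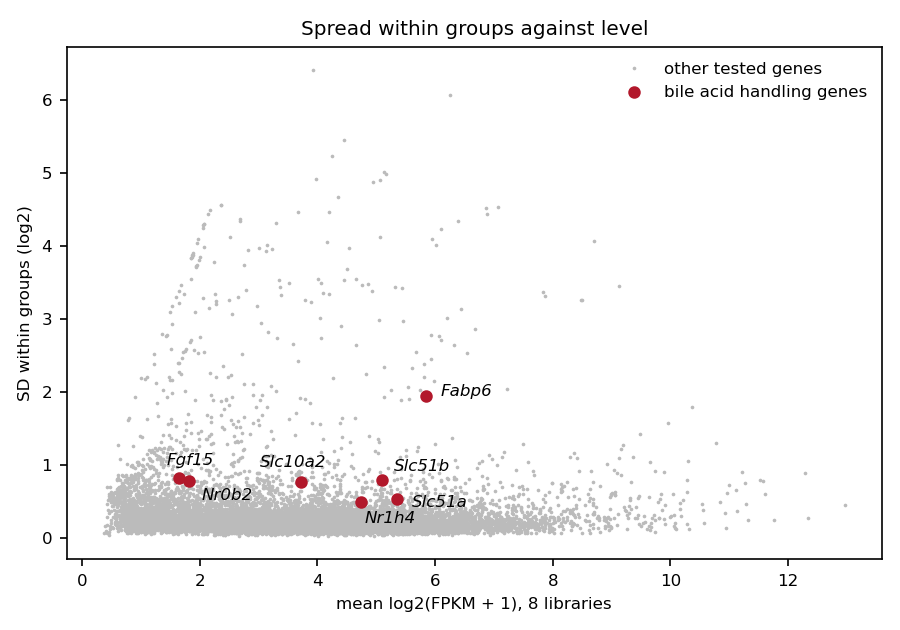
SD of log2(FPKM + 1) within groups against the mean of log2(FPKM + 1) over the 8 libraries, with the 7 bile acid handling genes in red and the other tested genes in grey. Fabp6 stands at an SD of 1.94, and the other 6 lie between 0.49 and 0.82.

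Gata4, a transcription factor of the duodenum and jejunum that is known to fade in the ileum, and Osr2, a transcription factor taken here as higher in the distal gut, were read beside these genes in every library. Gata4 was at 45.5, 39.7 and 49.2 FPKM in SMAD4KO_BRAF, at 45.0 and 58.8 FPKM in the libraries labelled CDX2KO_BRAF, and at 58.0, 42.6 and 57.0 FPKM in BRAF. Its SD within groups was 0.22, near the median of all tested genes. Its presence in all 8 libraries matches the jejunal label but cannot tell jejunum from duodenum. Osr2 was at 20.7, 16.8 and 22.1 FPKM in SMAD4KO_BRAF, at 21.4 and 20.9 FPKM in CDX2KO_BRAF, and at 13.3, 31.1 and 22.1 FPKM in BRAF. Neither gene passed the test in any comparison (limma adjusted p between 0.515 and 0.964 for Gata4 and between 0.872 and 0.988 for Osr2).

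Within each group Fabp6 and Osr2 put the libraries in the same order. In CDX2KO_BRAF that order rests on close values (Osr2 21.4 and 20.9 FPKM, Fabp6 2.93 and 2.31 FPKM). Pearson's r of log2(FPKM + 1) of Fabp6 with Osr2 was 0.41 over the 8 libraries and 0.82 for deviations from the group means. By the latter measure the other genes did not follow Osr2 closely: Slc51b 0.28, Slc10a2 0.17, Slc51a 0.14, Nr1h4 0.01, Nr0b2 -0.5 and Fgf15 -0.77. BRAF library 1, with the highest Fabp6 at 1083 FPKM, had the highest Osr2 (31.1 FPKM) and the lowest Gata4 of the BRAF libraries (42.6 FPKM). In SMAD4KO_BRAF, by contrast, library 2 had the most Fabp6 (430.4 FPKM) and also the most Gata4 (49.2 FPKM). Fgf15 ran opposite to Fabp6 in both of those groups: SMAD4KO_BRAF library 1 and BRAF library 0 had the least Fabp6 of their groups (15.6 and 71.7 FPKM) and the most Fgf15 (9.42 and 3.23 FPKM). These orders rest on 2 or 3 libraries a group, that of Fgf15 was noticed after the values were seen, and none was tested.

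Gata4 and Osr2 are single genes of longer lists, whose other members did not all follow them. The median of the 11 proximal genes, minus the BRAF mean, was -0.14, -0.51 and -0.72 in SMAD4KO_BRAF and 0.44, -0.42 and -0.11 in BRAF, so unlike Gata4 it was lowest in SMAD4KO_BRAF library 2 as well as in BRAF library 1. Lct, Cd36 and Rbp2 were at 8.93, 4.92 and 1696 FPKM in SMAD4KO_BRAF library 2, the lowest of that group for each. Apoa4, Onecut2 and Pdx1 were also lowest there, Slc40a1 was highest like Gata4, and Fabp1, Npc1l1 and Cybrd1 lay between. In BRAF library 1 Cd36 and Npc1l1 were the highest of BRAF, Lct and Cybrd1 lay between, and the other proximal genes were lowest. The median of mature enterocyte markers, taken in the same way, was also lowest in both libraries (-1.58 and -0.25). The median of the 6 tested distal genes was -0.04, -0.89 and 0.07 in SMAD4KO_BRAF and -0.03, 0.19 and 0.01 in BRAF, highest in the same pair of libraries. Its members differed from Osr2: BRAF library 1 was the lowest BRAF library for Amn (26.6 FPKM) and Pyy (3.98 FPKM). In SMAD4KO_BRAF library 0 was the highest for Amn (22.3 FPKM), Pyy (17.6 FPKM) and Gcg (34.8 FPKM).

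Other features moved with the same libraries. T cell and intraepithelial lymphocyte markers, of which 7 of 7 were tested, summed to 37.7, 121 and 342 FPKM in SMAD4KO_BRAF, 8.34 and 47.4 FPKM in both libraries labelled CDX2KO_BRAF, and 25.3, 665 and 123 FPKM in BRAF. Mesenchyme and smooth muscle markers, 5 of 8 tested, summed to between 11.0 and 38.0 FPKM in SMAD4KO_BRAF, 4.36 and 11.8 FPKM in CDX2KO_BRAF, and 9.23 and 73.5 FPKM in BRAF. Both lists were thus highest in SMAD4KO_BRAF library 2 and in BRAF library 1, where Fabp6 was highest in its group, and no gene of either list is at 0 in every library. The male libraries stood differently in Fabp6: SMAD4KO_BRAF library 0 was the middle one of its group (67.4 FPKM) and BRAF library 0 the lowest of its group (71.7 FPKM). The part of immune cells, mesenchyme, sex and gut position in the spread of Fabp6 was not tested.

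**Figure D4:**
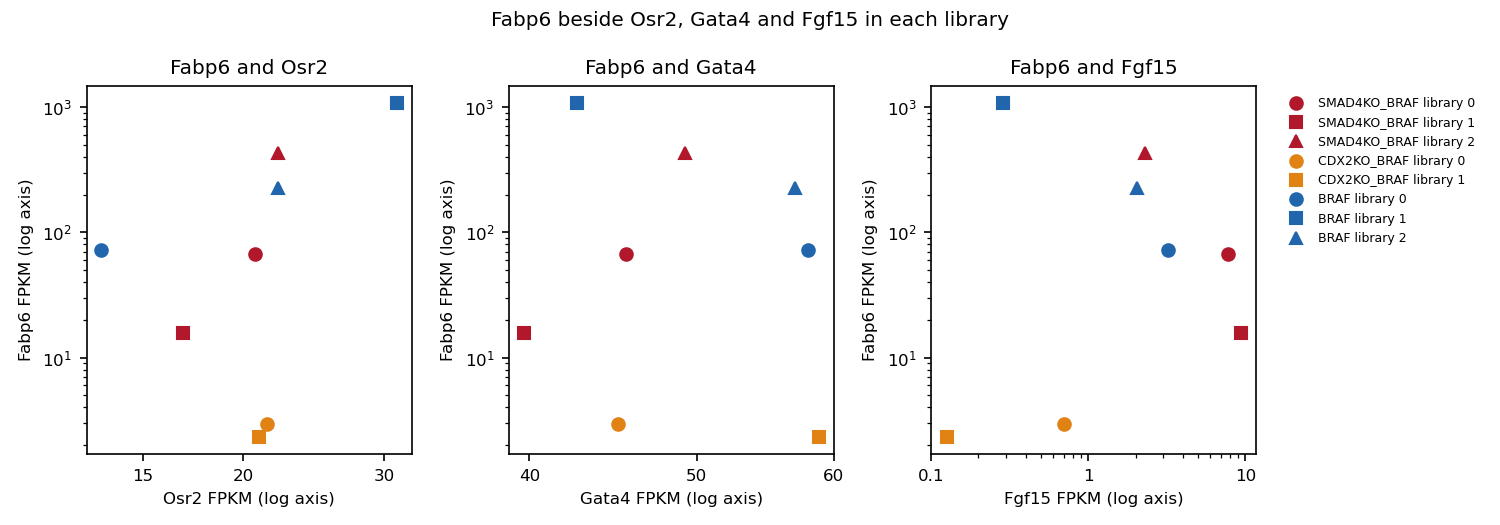
Fabp6 against Osr2, Gata4 and Fgf15 in each of the 8 libraries, in FPKM on log axes, with colour for the group and shape for the library number. BRAF library 1 (Fabp6 1083 FPKM) is highest for Osr2 at 31.1 FPKM, and the CDX2KO_BRAF libraries stay under 3 FPKM of Fabp6 with Osr2 at 21.4 and 20.9 FPKM.

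The other distal genes were mostly low. Of 10 genes listed as highest in ileum or colon 6 were tested, Car1 was listed at 0 in all 8 libraries, and Hoxb13 and Insl5 did not exceed 0.631 and 0.124 FPKM. Amn, a subunit of the ileal vitamin B12 receptor, was at 22.3, 4.26 and 12.6 FPKM in SMAD4KO_BRAF, at 10.1 and 3.17 FPKM in the libraries labelled CDX2KO_BRAF, and at 33.5, 26.6 and 31.1 FPKM in BRAF. As for Slc10a2, all BRAF libraries lay above the other two groups and SMAD4KO_BRAF library 1 was the lowest of its group, and no difference in Amn passed (limma adjusted p = 0.312 in SMAD4KO_BRAF and 0.0609 in CDX2KO_BRAF, each against BRAF). In CDX2KO_BRAF against BRAF 1 of the 6 fell, Nts, the gut peptide neurotensin (log2 change -1.81 ± 0.46, limma adjusted p = 0.0403). Of all tested genes 7.21% fell in that comparison and 14.1% were called in either direction.

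Among the 7 genes, Slc10a2, Slc51a and Slc51b moved together most closely over the 8 libraries. Pearson's r of log2(FPKM + 1) was 0.95 for Slc10a2 with Slc51b, 0.9 for Slc51a with Slc51b and 0.86 for Slc10a2 with Slc51a. For deviations from the group means these values were 0.88, 0.82 and 0.92. The 3 transport genes put the libraries in the same order within SMAD4KO_BRAF and within CDX2KO_BRAF, but not within BRAF. There library 1 was the lowest for Slc51a (99.7 FPKM) and the highest for Slc51b (97.3 FPKM). SMAD4KO_BRAF library 1 deviated by -1.18 (Slc10a2), -0.87 (Slc51a) and -0.85 (Slc51b) from its group mean. Fabp6 followed Slc51a over the 8 libraries (r = 0.85) but less so within groups (r = 0.39). Nr1h4 and Nr0b2 varied with each other (r = 0.77 over the libraries and 0.78 within groups). All genes share the same 8 libraries and the same scaling, and these values are given as descriptions with no test.

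The tested genes whose pattern over the 8 libraries was most like each of the 7 were taken as the 3 with the highest Pearson's r. Those of Slc51a were Rhbg (0.996), Dhrs11 (0.995) and Sgpl1 (0.992), and Dhrs11 was again among the 3 for deviations from the group means (0.99), with Pyy (0.998) and Coq4 (0.991). Those of Slc51b were Abcg2 (0.986), Pomp (0.972) and Mocs2 (0.971), and those of Slc10a2 were Dirc2 (0.967), Abcg2 (0.96) and Sct (0.956). Abcg2, an apical efflux pump, was thus common to both. Those of Fabp6 were Mro (0.988), Prpsap1 (0.977) and Ces1e (0.973), and within groups Apol10a (0.988), Engase (0.987) and Psme2 (0.984).

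Apol10a was at 2.44, 0.606 and 22.6 FPKM in SMAD4KO_BRAF, at 0.141 and 0.104 FPKM in the libraries labelled CDX2KO_BRAF, and at 2.23, 31.9 and 10.2 FPKM in BRAF, which within each group is the order of Fabp6. Those of Nr1h4 were Rpl35a (0.975), Tmub1 (0.974) and Llgl2 (0.965), those of Nr0b2 were Mrps6 (0.984), Dpm2 (0.965) and Ccser2 (0.955), and those of Fgf15 were Snora70 (0.953), Yy2 (0.943) and Nfasc (0.938). Each is the highest of 12084 values over 8 libraries, and nothing was tested.

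Other transporters of bile acids and organic anions were read from a list of 11 genes, of which 5 were tested. In the libraries labelled CDX2KO_BRAF 3 fell and 1 rose against BRAF, where 7.21% of all tested genes fell and 14.1% were called in either direction. Abcc2, an apical export pump, was at 18.9 and 24.4 FPKM in CDX2KO_BRAF, against 173, 112 and 120.4 FPKM in BRAF (log2 change -2.57 ± 0.28, limma adjusted p = 0.00207). Slco2b1, an uptake carrier of organic anions, was at 0.192 and 0.136 FPKM in CDX2KO_BRAF, against 7.47, 18.2 and 18.9 FPKM in BRAF (log2 change -3.67 ± 0.56, limma adjusted p = 0.00707). The third to fall was Abcg2 (log2 change -1.19 ± 0.3, limma adjusted p = 0.0397).

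Abcc4, an export pump that also carries bile acids, went the other way. It was at 31.5 and 41.5 FPKM in CDX2KO_BRAF, against 8.91, 4.09 and 5.31 FPKM in BRAF (log2 change 2.44 ± 0.4, limma adjusted p = 0.00928). Of these 5, 0 passed the limma test in SMAD4KO_BRAF against BRAF, and 2 were under an unadjusted p of 0.05, against 15.1% of all tested genes. Their median log2 change was -0.38, against -0.01 over all tested genes. The liver uptake carrier Slc10a1 stayed under 1 FPKM in all libraries, its highest value being 0.793 FPKM.

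Of 7 tested receptors other than FXR that sense bile acids or sterols, LRH-1 included, 2 fell in CDX2KO_BRAF against BRAF. The share of all tested genes that fell there was 7.21%. Vdr, the vitamin D receptor, which also binds lithocholic acid, was at 8.93 and 6.63 FPKM in CDX2KO_BRAF, against 54.1, 97.8 and 63.3 FPKM in BRAF (log2 change -3.02 ± 0.4, limma adjusted p = 0.00421). Nr1i3, which encodes the xenobiotic receptor CAR, was at 3.76 and 2.29 FPKM in CDX2KO_BRAF, against 27.2, 31.9 and 29.9 FPKM in BRAF (log2 change -2.95 ± 0.22, limma adjusted p = 0.000605). These falls stood beside an Nr1h4 that overlapped with BRAF. In SMAD4KO_BRAF against BRAF 0 of the 7 passed the limma test and 0 were under an unadjusted p of 0.05, against 15.1% of all tested genes.

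Among partners and coregulators of FXR, the coactivator gene Ncoa3 rose in CDX2KO_BRAF against BRAF (log2 change 0.74 ± 0.11, limma adjusted p = 0.00678). The heterodimer partner Rxra had a log2 change of -0.35 ± 0.2 there (limma adjusted p = 0.296). Of 7 other genes described as FXR-dependent in mouse intestine, 0 passed the limma test against BRAF in either comparison. Under an unadjusted p of 0.05 were 1 in SMAD4KO_BRAF and 2 in CDX2KO_BRAF, near the shares of all tested genes (15.1% and 28.8%). In CDX2KO_BRAF against SMAD4KO_BRAF 1 of the 7 was called, against 11.6% of all tested genes. Ang, an antimicrobial ribonuclease, rose there, close to the threshold (log2 change 1.18 ± 0.3, limma adjusted p = 0.0485).

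Of the genes of the FGF15 axis and of bile acid synthesis 9 of 10 listed are in the table and 4 were tested. The enzyme genes Cyp7a1 and Cyp8b1, known from the liver, were listed at 0 in all 8 libraries, and the coreceptor gene Klb did not exceed 0.121 FPKM. The FGF15 receptor gene Fgfr4 was at 15.2, 19.6 and 11.2 FPKM in SMAD4KO_BRAF, at 17.4 and 12.7 FPKM in the libraries labelled CDX2KO_BRAF, and at 13.6, 8.42 and 10.8 FPKM in BRAF. Against BRAF 0 of the 4 passed the limma test or were under an unadjusted p of 0.05, in either comparison. Over all tested genes 15.1% in SMAD4KO_BRAF and 28.8% in CDX2KO_BRAF were under that unadjusted p.

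Among 14 transcription factors known to act on Slc10a2, Fabp6 or regional identity, 5 fell and 1, Cdx2, rose in CDX2KO_BRAF against BRAF. The shares over all tested genes there were 7.21% lower and 14.1% called in either direction. Hnf4g, which encodes an enterocyte nuclear receptor, was at 15.7 and 16.8 FPKM in CDX2KO_BRAF, against 109.7, 121 and 137 FPKM in BRAF (log2 change -2.84 ± 0.18, limma adjusted p = 0.000359). Its relative Hnf4a fell by 0.91 ± 0.15 (limma adjusted p = 0.00915), and Maf and Ppara fell by 1.31 and 1.21 (limma adjusted p = 0.0195 and 0.0251). Of the 14, 0 passed the limma test in SMAD4KO_BRAF against BRAF and 2 were under an unadjusted p of 0.05, against 15.1% of all tested genes. Maf was at 13.6, 11.3 and 11.8 FPKM in SMAD4KO_BRAF, against 32.2, 43.9 and 36.4 FPKM in BRAF, without overlap (log2 change -1.53 ± 0.24, limma adjusted p = 0.122).

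The transport genes are expressed by enterocytes, and markers of mature enterocytes were lower in the same groups. Of 15 tested, 12 fell in CDX2KO_BRAF against BRAF, where 7.21% of all tested genes fell. Their median log2 change was -2.22, against 0.02 over all tested genes. Sis, the brush border enzyme sucrase-isomaltase, was at 3.71 and 2.85 FPKM in CDX2KO_BRAF, against 755, 368 and 508 FPKM in BRAF (log2 change -6.94 ± 0.49, limma adjusted p = 0.000482). In SMAD4KO_BRAF against BRAF 0 of the 15 passed the limma test and 12 were under an unadjusted p of 0.05, against 15.1% of all tested genes. All 15 changes were negative, with a median of -1.16 against -0.01 over all tested genes.

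Library by library, the median of the enterocyte list minus the BRAF mean was -0.65, -1.31 and -1.58 in SMAD4KO_BRAF, -1.76 and -2.42 in CDX2KO_BRAF, and 0.5, -0.25 and -0.18 in BRAF. The same median over the 7 bile acid handling genes was -0.6, -2.36 and -0.78 in SMAD4KO_BRAF, -1.09 and -2.16 in CDX2KO_BRAF, and 0.11, -0.11 and -0.01 in BRAF. The summed FPKM of the enterocyte list ran between 4079 and 9869 in SMAD4KO_BRAF, 2975 and 5821 in CDX2KO_BRAF, and 10182 and 18737 in BRAF, and none of its 15 genes was at 0 in every library of a group. In crypt tissue read as a whole, fewer cells of a type and less RNA per cell cannot be told apart. The part of enterocyte content in the lower transport genes was not tested.

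Genes of the proximal small intestine also fell in the libraries labelled CDX2KO_BRAF: 5 of 11 against BRAF, with Pdx1, a duodenal and pancreatic transcription factor, the 1 that rose. That comparison had 7.21% of all tested genes lower and 14.1% called in either direction. Lct, the jejunal enzyme lactase, had a log2 change of -5.42 ± 0.57 (limma adjusted p = 0.00181), and Fabp1, the proximal fatty acid-binding protein, -2.74 ± 0.65 (limma adjusted p = 0.0342). Falls in CDX2KO_BRAF were thus measured in proximal and in ileal genes of enterocytes. In SMAD4KO_BRAF against BRAF 0 of these 11 passed the limma test, with a median log2 change of -0.33. There 2 were under an unadjusted p of 0.05, against 15.1% of all tested genes.

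**Figure D5:**
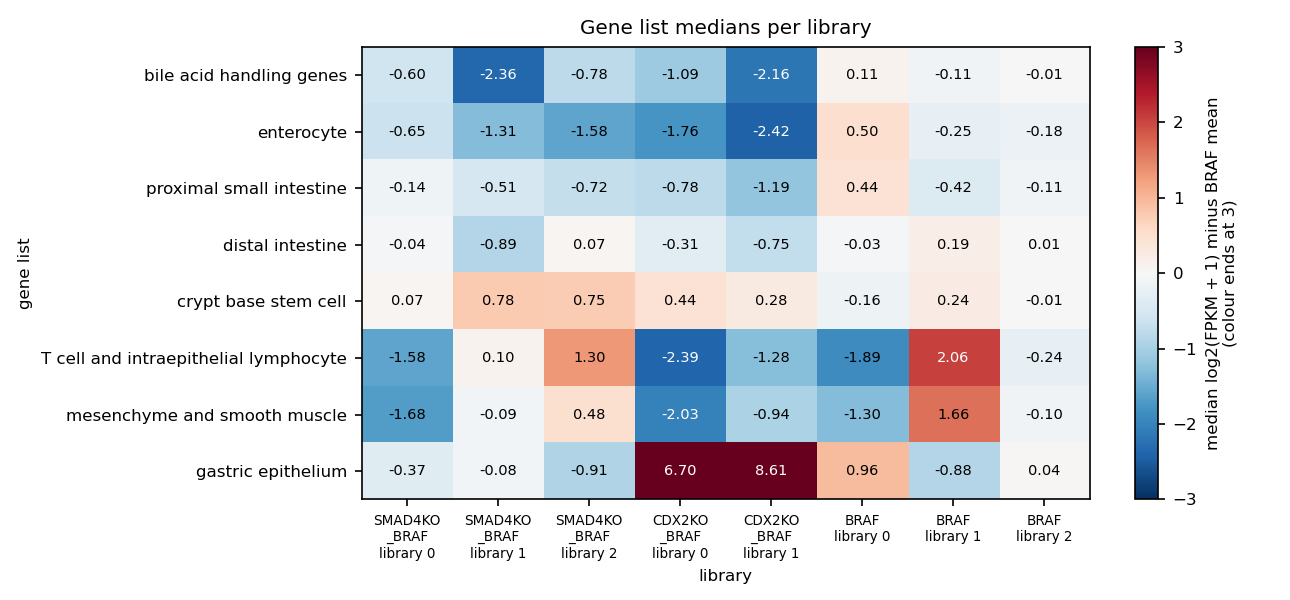
Median over the tested genes of each list of log2(FPKM + 1) minus its BRAF mean, in each of the 8 libraries, with blue for lower and red for higher values and the value printed in each cell. The bile acid handling genes (-0.6 to -2.36) and the enterocyte list (-0.65 to -2.42) are negative in all 5 SMAD4KO_BRAF and CDX2KO_BRAF libraries, and the gastric list stands at 6.7 and 8.61 in CDX2KO_BRAF.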

How the data were processed

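RNA-seq libraries (TruSeq v2, 50 bp single-end reads) are described in the labels' protocols. The submitters' processing notes name mm9, TopHat2 2.1.0 and, each at 2.2.1, Cuffdiff and Cuffnorm; the program behind the table is not given in the sources used here. The table holds FPKM as deposited by the authors. 8 columns were matched to 3 groups by name, 3 further columns were not used, and 5247 genes are at 0 in all 8 libraries. Depth is unknown, so precision comes only from the spread between libraries.

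The deposited FPKM were put on the log2(FPKM + 1) scale. The 12084 genes reaching an FPKM of 1 in at least 2 libraries were fitted with limma 3.58.1 (R 4.3.3, mean-variance trend, all 3 groups in 1 model), with Benjamini-Hochberg adjustment within each of 3 comparisons, two-sided. Intervals are unadjusted, on 7.25 moderated degrees of freedom. The fit was tested on simulated data. The alternatives changed the scaling (quantile normalization or median-ratio rescaling), the filter (none, or an FPKM of 5), the pseudocount (0.1) or the fit. The fits were robust, without the trend, weighted by library (arrayWeights), on the 2 compared groups alone, with sex or the column number as a term, or without each library in turn. They moved the median log2 change of all genes to at most 0.069.

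The 7 genes, the lists, the tests and the alternatives were chosen with earlier results of these data known. Named are the 7 genes, the targeted genes, every called gene of a list or else up to 4 with the smallest adjusted p (a selection of these is printed), Gata4 and Osr2, and the genes most like each of the 7. Amn, Gcg, Rxra, Slc10a1, Klb, Apoa4, Onecut2, Slc40a1, Cybrd1 and the genes given as at or near 0 fall outside this rule. They were chosen after their values were seen. 1 gene of a list is not reported here. Promoters are from RefSeq on GRCm38.p6, and no coordinates were converted. Figures and tables used Python 3.11.15 with pandas 2.3.3 and matplotlib 3.10.9.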

Additional observations from a re-analysis of the deposited data

How the results depend on the processing

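Over the 7 genes, 3 comparisons and up to 19 alternatives, 355 of 396 changes kept their direction and their side of the threshold, 28 lost a call, 6 gained one and 7 turned direction. The count of the 7 genes called in SMAD4KO_BRAF against BRAF was 0, and 1 with library weights. In CDX2KO_BRAF against BRAF it was 3, and 1 with no filter, with a robust fit or with the replicate block. Leaving out each library in turn it ran between 1 and 4. In CDX2KO_BRAF against SMAD4KO_BRAF it was 1, then 0 with no filter or with only the 2 groups compared, 2 with library weights, and between 0 and 2 leaving out each library in turn. With no filter more genes are tested, and without a library the fit has fewer samples; the cause of the other moves was not tested.

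The changes that turned direction were all uncalled. Nr0b2 in SMAD4KO_BRAF against BRAF was 0.33 without SMAD4KO_BRAF library 2 and 0.08 without BRAF library 0, and as low as -0.67 without another library. In CDX2KO_BRAF against BRAF Nr1h4 was -0.04 with library weights, -0.13 without CDX2KO_BRAF library 1 and -0.01 without BRAF library 1, and at most 0.32 without another library. Against SMAD4KO_BRAF, without CDX2KO_BRAF library 1, Slc10a2 was 0.1 and Slc51b 0.16, and without other libraries they reached -1.02 and -1.62. Cdx2 in SMAD4KO_BRAF against BRAF, at 0.1, was -0.00 without SMAD4KO_BRAF library 2 and -0.01 without BRAF library 0, and at most 0.17 without another library. The rise of Cdx2 in CDX2KO_BRAF against BRAF passed in 15 of 19 alternatives.

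Same-numbered columns did not deviate together more than others, so the numbers were not taken to pair libraries. Correlations of their deviations from the group means lay between -0.109 and 0.241, the highest for the male libraries SMAD4KO_BRAF library 0 and BRAF library 0. Columns of unlike number reached 0.312 (SMAD4KO_BRAF library 2 with BRAF library 1, each the highest of its group for Fabp6) and -0.332 (SMAD4KO_BRAF library 2 with BRAF library 0). With a block for the column number 10, 1181 and 805 genes were called, in place of 9, 1704 and 1402, in SMAD4KO_BRAF against BRAF, CDX2KO_BRAF against BRAF and CDX2KO_BRAF against SMAD4KO_BRAF. The count over all genes in SMAD4KO_BRAF against BRAF was 1069 with library weights, 78 with sex as a term and 5 with no filter. No counts are given, so the counting error of low values such as those of Fgf15 and Nr0b2 is unknown.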
